A study of Mus musculus with 209 samples.

Results

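The PIM kinases Pim1, Pim2 and Pim3 were examined in every library of a mouse screen of injected cytokines. The members were chosen by symbol and are 3 of the 55011 genes in the count table. In C57BL/6 mice of 5 to 8 weeks (C57BL/6J in the injection protocol), IL1b, IL6 or TNFa was given intravenously, each at 5 ug in 120 uL of PBS, and control mice received the same volume of PBS. Cells were sorted 2 h later, 1000 per library, and RNA was sequenced with the ultra-low-input protocol of the Immunological Genome Project. This screen has 183 libraries of 14 cell types, with 4 or 5 libraries per type for PBS and 3 for a cytokine, except 2 each in the IL1b groups of MC and DC.8+, the IL6 groups of B.fo, MC and NK, and the TNFa group of T.8. The pDC have no IL1b libraries in the samples used here. A time course of 20 libraries, 2 per group, covered MFpc and Mo.6C+ at 2, 4, 8 and 24 h of TNFa, with PBS at 24 h as the only control. A further experiment of 6 libraries set 3 of Mo.6C+ from mice that received LPS, the endotoxin of Gram-negative bacteria, at 1 ng against 3 controls, and the labels give no time for it.

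Peritoneal cells were MFpc, the macrophages of the cavity, and MC, its mast cells. The other types came from the spleen. Its myeloid cells were MFrp (macrophages of the red pulp), GN (neutrophils), Mo.6C+ (monocytes bearing Ly6C), DC.8+ (dendritic cells bearing CD8) and pDC (the plasmacytoid kind). Its T cells were T.4 (CD4+), T.8 (CD8+), Treg (regulatory) and Tgd (with the gamma-delta receptor), beside NK (natural killer cells), B.fo (B cells of the follicle) and MZB (those of the marginal zone). For 158 spleen libraries the tissue label names the peritoneum, and the titles were followed. Each type's own markers scored higher in its own libraries than in any library of another type, with 2 of 5 Tgd markers present in the table. This compares libraries and does not measure purity. In every TNFa library of DC.8+ the MFrp markers scored above the DC.8+ markers on the log2 scale. The scores were 7.749 against 7.744, 7.925 against 6.959 and 6.905 against 6.796. With PBS the MFrp markers scored 5.671 to 7.492 and the DC.8+ markers 8.222 to 9.226. In PBS library 2 of MFrp the erythroid markers scored above the MFrp markers (12.52 against 11.12). Totals ran from 1094567 to 9291121 counts per library (median 4702887), and the MC libraries were among the shallowest at 1094567 to 2627292. No 2 libraries within the 67 groups held identical values. The labels do not say which libraries share a mouse, so p-values measure only the spread between these libraries, which may be technical.

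PIM kinases are serine/threonine kinases that are active as soon as they are made, without an activating phosphorylation by an upstream kinase, so their activity is set largely by how much mRNA and protein a cell holds. Cytokine receptors that signal through JAK kinases and STAT factors induce them, and NF-kB, the factor downstream of the IL1 and TNF receptors, is also known to act on PIM genes. They phosphorylate regulators of survival, the cell cycle and translation, several of which are shared with AKT. Pim1 was found as an insertion site of a leukaemia virus in mice, and Pim2 is known for its role in lymphocyte survival.

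On GRCm38, Pim1 lies on the plus strand at chr17:29490753-29496112, Pim2 on the plus strand at chrX:7878262-7883432 and Pim3 on the plus strand at chr15:88862186-88865726. Pim1 overlaps Gm26885 on the opposite strand. The strand setting of the counting is not given in the sources used here, so reads of those genes cannot be told apart. Sequences upstream of the 3 start sites are shown because the responses below are to cytokines whose receptors act through STAT factors and NF-kB. They are the first 200 bases of windows that begin 250 bases before each start, so the bases next to the start are not printed. They come from RefSeq on GRCm38.p6, plus strand, 5′ to 3′, at chr17:29490535-29490734, chrX:7878056-7878255 and chr15:88861944-88862143. Capitals mark the single match to the NF-kB consensus.
Pim1: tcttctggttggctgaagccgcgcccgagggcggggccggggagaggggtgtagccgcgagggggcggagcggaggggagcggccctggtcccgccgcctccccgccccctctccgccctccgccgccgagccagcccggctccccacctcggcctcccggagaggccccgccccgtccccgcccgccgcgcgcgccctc
Pim2: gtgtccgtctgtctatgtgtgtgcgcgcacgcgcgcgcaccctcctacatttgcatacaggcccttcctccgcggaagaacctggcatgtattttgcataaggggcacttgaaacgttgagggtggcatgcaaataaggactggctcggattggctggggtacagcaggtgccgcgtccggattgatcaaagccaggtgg
Pim3: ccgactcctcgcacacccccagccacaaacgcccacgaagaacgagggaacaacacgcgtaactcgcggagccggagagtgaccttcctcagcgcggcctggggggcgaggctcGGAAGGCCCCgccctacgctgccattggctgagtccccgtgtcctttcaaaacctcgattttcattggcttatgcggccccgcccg

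The whole windows, of 300 bases around each start, were searched on both strands. The NF-kB consensus matched at position -136 from the Pim3 start, on the minus strand, where it overlaps no STAT motif, and 8.46% of the 32851 windows in the RefSeq table hold such a match. Neither STAT motif, TTCNNNGAA or TTCNNNNGAA, matched in these windows, and 8.3% and 6.95% of all windows hold one. The GC box GGGCGG, found in 35.7% of all windows, matched 7 times for Pim1, 1 time for Pim2 and 4 times for Pim3. The 3 windows differ in composition, with a GC content of 81.3% for Pim1, 62.7% for Pim2 and 69% for Pim3 against a median of 52.7%. RefSeq lists a second Pim1 start inside the gene, whose window has a GC content of 49% and none of these matches. A match is a description of letters and was not tested as a binding site.

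With PBS alone, the 3 kinases marked different cells. Pim1 mRNA was highest in GN and Treg, Pim2 in Tgd and T.8, and Pim3 varied least across types. For these levels all PBS libraries were scaled together to counts in each 1e+06 (CPM) by TMM, edgeR's correction for library composition, and a bulk level cannot separate fewer expressing cells from less RNA per cell.

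Pim1 stood at 183.5 ± 13.8 CPM in GN (SD, n = 5) and at 158.3 ± 18.3 in Treg (n = 5). NK followed at 92.2 ± 11.8 (n = 5), then Tgd at 51.2 and T.4 at 45.8. Mo.6C+ at 40.5, DC.8+ at 37.6, T.8 at 30.2, MZB at 29.3 and MFrp at 27.2 formed a middle range, above MFpc at 18.1, B.fo at 17.0 and pDC at 13.7. MC were lowest at 2.59 ± 1.67 CPM (n = 4), from 1 to 10 raw counts per library. Among the 13 pairs of neighbours in this order, edgeR's quasi-likelihood test with Benjamini-Hochberg adjustment (threshold 0.05, all genes) called 3, against 36.1% of all tests of genes over those pairs. These were Treg over NK (log2 difference 0.78 ± 0.23 SE, adjusted p = 0.006478), NK over Tgd (0.85 ± 0.23, adjusted p = 0.004903) and pDC over MC (2.29 ± 0.38, adjusted p = 7.823e-07). GN and Treg were not distinguished, and with scaling to the library total alone Treg stood first, at 187.4 CPM. Before scaling, Pim1 had 404 to 551 counts in GN libraries with totals of 3603640 to 5377893. In NK it had 448 to 568 counts with totals of 4120737 to 5655051, so the height of GN above NK depends on the scaling.

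Pim2 had its highest means in lymphocytes and pDC, although Treg were not distinguished from DC.8+ below them (0.38 ± 0.37, adjusted p = 0.4318), nor DC.8+ from MFrp. It stood at 168.7 ± 32.3 CPM in Tgd (n = 5), 159.4 ± 35.3 in T.8 (n = 4) and 118.4 ± 21.1 in NK (n = 5). T.4 had 96.1, pDC 86.4, B.fo 55.4, MZB 53.6 and Treg 36.0 CPM. Treg thus had one of the highest Pim1 means and the lowest Pim2 mean of the 7 lymphocyte types. For Pim2 they were not distinguished from MZB above them (0.58 ± 0.36, adjusted p = 0.258 by edgeR's quasi-likelihood test). Below them were DC.8+ at 27.5, MFrp at 20.9, GN at 5.89, Mo.6C+ at 5.69, MC at 4.55 and MFpc at 4.32 ± 1.76 CPM (n = 5). Of the neighbours, MFrp over GN was called (1.88 ± 0.42, adjusted p = 9.808e-05 by edgeR's quasi-likelihood test), although the library ranges of 9.84 to 37.1 and 0 to 16.9 CPM overlapped, and 35.1% of all such tests were called.

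Pim3 had the narrowest range. It ran from 45.2 ± 14.5 CPM in B.fo (n = 5), 40.0 in Treg, 35.2 in T.4, 34.4 in T.8, 32.4 in NK and 30.1 in Tgd to 10.2 ± 5.31 in MFrp (n = 5). MZB at 27.2, MFpc at 26.1, DC.8+ at 24.1, pDC at 22.7, GN at 18.0, Mo.6C+ at 14.1 and MC at 10.4 lay between. No neighbours in this order were distinguished (edgeR's quasi-likelihood test), against 34.1% of all such tests. Per kilobase of exon, which allows the genes to be set side by side, GN held 54.6 CPM of Pim1, 2.11 of Pim2 and 7.41 of Pim3. Tgd held 15.2, 60.4 and 12.4 CPM per kilobase in the same order, and MFpc 5.37, 1.55 and 10.7. Pim1 was thus the leading PIM transcript in GN, Pim2 in Tgd and Pim3 in MFpc.

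**Figure D1:**
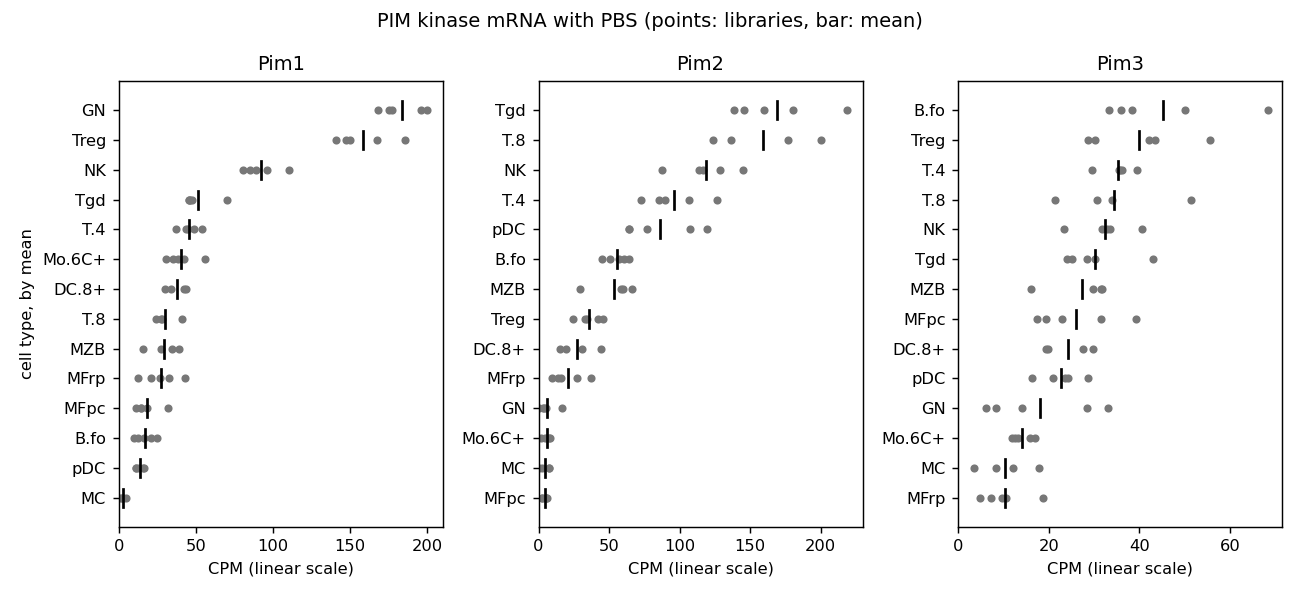
PIM kinase mRNA with PBS in 14 cell types, in CPM on a linear axis, with cell types ordered by mean within each panel (points are libraries, bars are means). GN and Treg lead for Pim1, Tgd and T.8 for Pim2, while for Pim3 the means run only from 10.2 to 45.2 CPM.

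The screen asks how each cell type responds to each cytokine at 2 h. IL1b and TNFa raised Pim1 in most cell types, myeloid and lymphoid. They raised Pim2 in 5 of the 7 lymphocyte types each, in MFpc and MC, and with TNFa also in GN. Calls of Pim3 fell in myeloid types, although the lineages were not tested against each other as groups. IL6 raised a PIM kinase in single cell types and lowered Pim1 in GN. For these responses libraries were scaled within a cell type, so levels are comparable within a type only and differ from those above (for Pim1 in GN with PBS, 92.8 instead of 183.5 CPM), and calls are edgeR's quasi-likelihood test with an adjusted p under 0.05.

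IL1b raised Pim1 in 11 of 13 cell types, while 5.76% of all tests of genes over cell types were raised and 4.26% lowered. The raised share differed by type, from 0.474% of genes in T.8 to 19.4% in Mo.6C+ and 20.7% in MFpc, and a call in the last 2 types stands against those shares. In MFpc the IL1b libraries had 115, 107 and 90.5 CPM of Pim1 and the PBS libraries 8.01, 9.98, 22.6, 9.85 and 12.8. The groups lie far apart, with a log2 difference of 3.05 ± 0.21 (adjusted p = 3.607e-10). In MC the IL1b libraries had 44.8 and 33.6 CPM against 0.85, 2.46, 4.33 and 1.64 with PBS (3.95 ± 0.58, adjusted p = 0.0001894). That was the largest Pim1 difference of the screen on the log2 scale, measured from PBS libraries of 10 counts or fewer. In Mo.6C+ the values were 202, 115 and 118 CPM against 34.4, 28.8, 25.3, 46.7 and 31.8 (2.12 ± 0.25, adjusted p = 6.258e-06). In DC.8+ they were 138 and 179 against 37.6, 26.4, 38.3 and 29.5 (2.27 ± 0.23, adjusted p = 3.361e-05). Both types separated from PBS in every library.

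GN, where Pim1 started highest, still rose, from 84.9, 81.3, 103, 102 and 92.8 CPM with PBS to 274, 284 and 260 with IL1b (1.56 ± 0.12, adjusted p = 5.615e-08). MFrp rose from 25.1 ± 10.2 (n = 5) to 91.0 ± 25.7 CPM (n = 3), a log2 difference of 1.86 ± 0.32. Among lymphocytes, Tgd rose by 1.21 ± 0.18, T.4 by 1.16 ± 0.15, T.8 by 1.14 ± 0.24, MZB by 0.94 ± 0.24 and Treg by 0.71 ± 0.14. The lymphocyte increases were smaller than each of the called myeloid ones. Treg went from 187.4 ± 21.6 (n = 5) to 307.2 ± 49.1 CPM (n = 3). The T.8 call was near the threshold (adjusted p = 0.04909) and was lost in 6 of 7 runs that left out 1 library, and the MZB call (adjusted p = 0.02843) in 4. NK (0.22 ± 0.17, adjusted p = 0.6473) and B.fo (0.87 ± 0.29, adjusted p = 0.2083) were not called.

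TNFa raised Pim1 in 11 of 14 cell types, against 8.26% of all tests raised and 7.95% lowered, with a raised share of 0.337% in T.8 to 26.6% in MFpc. In GN the libraries reached 396, 407 and 440 CPM (2.16 ± 0.12, adjusted p = 3.427e-10). In DC.8+ they reached 298, 277 and 174 (2.92 ± 0.21, adjusted p = 6.719e-07) and in Mo.6C+ 231, 196 and 185 (2.61 ± 0.25, adjusted p = 3.416e-07). No TNFa library of these 3 types overlapped the PBS range. The 5 markers of DC.8+ themselves, none at 0, summed to 1384 to 2321 CPM in its TNFa libraries against 2345 to 4525 with PBS. The MFrp markers scored above them in every TNFa library of DC.8+, and the part of either list in the result was not tested. MFpc stood at 78.1, 75.8 and 79.2 CPM (2.63 ± 0.21), MFrp at 126, 139 and 192 (2.60 ± 0.32) and MC at 17.3, 20.7 and 20.4 (2.95 ± 0.56). The pDC rose from 14.1 ± 2.51 (n = 5) to 45.8 ± 9.81 CPM (n = 3), by 1.70 ± 0.25 (adjusted p = 0.0001446). NK, which IL1b did not raise detectably, rose from 102.4 ± 13.8 (n = 5) to 163, 192 and 248 CPM (0.97 ± 0.17, adjusted p = 0.0004179).

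In the T cells TNFa raised Pim1 by 1.25 ± 0.18 in Tgd, 0.67 ± 0.14 in Treg and 0.56 ± 0.15 in T.4, the last with an adjusted p of 0.02965 that was lost in 4 of 8 runs leaving out 1 library. In T.8 the libraries at 53.8 and 82.9 CPM lay above all PBS libraries (28 to 47.9) without a call (0.95 ± 0.26, adjusted p = 0.1678). The B cells were not called, MZB at 0.03 ± 0.25 and B.fo at 0.35 ± 0.29.

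With IL6, Pim1 was called in 2 of 14 cell types, in opposite directions, against 1.46% of all tests raised and 0.95% lowered. In GN, where IL6 lowered 4.28% of genes, Pim1 fell to 53.8, 52.7 and 55.9 CPM, below every PBS library (log2 difference -0.78 ± 0.13, adjusted p = 0.001331). This is the single lowered call among the PIM responses to the 3 cytokines. In MC the IL6 libraries disagreed, at 4.81 and 43.3 CPM against 0.85 to 4.33 with PBS (3.31 ± 0.59, adjusted p = 0.005048). Without the library at 43.3 CPM the MC difference was 0.95 and not called, and with a replicate block the call was lost too. The 4 markers of T.4 summed to 11.9 CPM in the MC library at 43.3 CPM and to 0 in the other, against 0.412 to 1.59 with PBS, and their part in the result was not tested. In DC.8+ the 3 IL6 libraries at 46.7, 50.1 and 42.7 CPM lay above the PBS range, with no call (0.50 ± 0.21, adjusted p = 0.8754).

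The identity markers of GN also differed between treatments. Summed over 6 neutrophil markers, of which none was at 0, GN libraries had 55860 to 86260 CPM with PBS, 164900 to 176500 with IL1b, 97990 to 115700 with IL6 and 157200 to 182400 with TNFa. The marker sums lay above the PBS range with all 3 cytokines, and their part in the Pim1 values was not tested.

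Pim2 was raised by IL1b in 7 of 13 cell types, against 5.76% of all tests, with shares from 0.474% in T.8 to 20.7% in MFpc. The largest rise was in MFpc, where its PBS level was lowest: 64.8, 42.7 and 44.2 CPM with IL1b against 3.86, 1.88, 1.52, 4.08 and 3.79 with PBS (4.04 ± 0.25, adjusted p = 7.894e-11). Tgd, which had the highest PBS level, rose to 730, 981 and 880 CPM from 220, 171, 181, 196 and 269 (2.06 ± 0.14, adjusted p = 4.608e-08). Every IL1b library of both types lay above the PBS range. In Tgd the 2 Tgd markers had a mean log2 CPM of 6.335 to 7.051 with IL1b and 7.766 to 8.704 with PBS. Their part in the Tgd values was not tested. In T.8 the libraries had 590, 358 and 482 CPM against 160, 203, 236 and 145 (1.36 ± 0.26, adjusted p = 0.03307). MC rose by 2.37 ± 0.51, from 4.06 to 22.5 CPM. T.4 rose by 0.70 ± 0.15, MZB by 0.78 ± 0.21 and B.fo by 0.81 ± 0.18. The calls in T.8, MZB and B.fo were lost in 6, 6 and 5 of the runs leaving out 1 library. Without IL1b library 3 of each type, calls were left in 3 types (MFpc, T.4 and Tgd). In 4 types (these and MC) calls were left without PBS library 1, without IL1b library 1, or with the replicate numbers as a block.

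No change of Pim2 with IL1b was called in monocytes or neutrophils. In Mo.6C+ it stayed at 4.76, 1.25 and 3.53 CPM with IL1b against 1.51 to 6.81 with PBS (-0.57 ± 0.58), although Pim1 rose strongly in the same libraries. In GN the IL1b libraries spread from 1.69 to 15.9 CPM (1.63 ± 0.88, adjusted p = 0.2123). Treg were not called either (0.67, adjusted p = 0.1266).

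The share of genes raised by TNFa was 26.6% in MFpc, 18.5% in GN, 7.65% in NK and 1.89% in Tgd, and 8.26% over all tests. TNFa raised Pim2 in 8 of 14 cell types. In GN it reached 35.9, 36.4 and 24.3 CPM, against 0, 1.94, 2.85, 1.53 and 8.95 with PBS (3.42 ± 0.89, adjusted p = 0.005476). In NK it reached 313, 276 and 327 CPM against 143, 131, 95.7, 161 and 128 (1.21 ± 0.18, adjusted p = 7.536e-05). In Tgd it reached 640, 592 and 530 CPM (1.51 ± 0.14, adjusted p = 2.02e-06). Every TNFa library of these 3 types lay above the PBS range. MFpc rose to 16.7, 18.2 and 18.5 CPM (2.53 ± 0.26) and MC to 23.1, 26.5 and 33.3 (2.65 ± 0.46). T.4 rose by 0.72 ± 0.15, Treg by 0.89 ± 0.22 and B.fo by 0.68 ± 0.18, the last with an adjusted p of 0.04202 that was lost in 6 runs leaving out 1 library. In Mo.6C+ Pim2 was again not called (0.28 ± 0.55).

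Against 1.46% of all tests raised, and 1.61% of genes in T.4, IL6 raised Pim2 in T.4 alone of 14 types. Pim2 rose there from 113 ± 23.7 (n = 5) to 167 ± 21.1 CPM (n = 3), by 0.56 ± 0.15 (adjusted p = 0.04552). The libraries at 185, 171 and 144 CPM overlapped the PBS range of 86.8 to 147, and the call was lost in 6 of 8 runs leaving out 1 library and in a fit of the IL6 and PBS libraries alone. In MC the IL6 libraries at 16.8 and 20.9 CPM lay above the PBS range of 0.615 to 6.56 without a call (2.10 ± 0.52, adjusted p = 0.0741).

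Pim3 was raised by IL1b in 4 of 13 cell types and by TNFa in 3 of 14, and these were macrophages, monocytes and, for IL1b, DC.8+. The types called with TNFa are among those in which many genes rose: 26.6% of genes in MFpc, 24.3% in Mo.6C+ and 11.5% in MFrp, against 18.5% in GN, 7.65% in NK and 0.337% to 3.6% in the T and B cells. With IL1b the shares were 20.7% in MFpc, 19.4% in Mo.6C+, 6.64% in MFrp and 3.38% in DC.8+. In MFpc the libraries had 63.3, 84.7 and 87.7 CPM with IL1b and 83.9, 121 and 170 with TNFa, against 13.7, 16.1, 27.5, 12 and 22 with PBS. The log2 differences were 2.11 ± 0.23 (adjusted p = 2.647e-07) and 2.78 ± 0.22 (adjusted p = 2.055e-09). In Mo.6C+ Pim3 had 37.2, 40.4 and 65 CPM with IL1b, 106, 126 and 136 with TNFa and 10.2, 10.8, 13.1, 10 and 14 with PBS. The Mo.6C+ groups did not overlap and differed from PBS by 2.03 ± 0.34 (adjusted p = 0.0001993) and 3.40 ± 0.34 (adjusted p = 5.815e-07). In MFrp it had 33.4, 17.8 and 41.1 CPM with IL1b, 62.5, 92.8 and 122 with TNFa and 9.27, 8.91, 4.43, 17.7 and 6.97 with PBS. The MFrp differences were 1.71 ± 0.39 (adjusted p = 0.009198) and 3.29 ± 0.40 (adjusted p = 2.007e-05). In DC.8+ the libraries at 48.5 and 53.6 CPM lay above 17.1, 17.4, 26.2 and 23.9 (1.27 ± 0.33, adjusted p = 0.03786), and this call was lost in 5 of 6 runs leaving out 1 library.

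Other cells' markers varied among these libraries. The 5 erythroid genes on the list, none at 0, summed to 1111 to 46980 CPM in MFrp with PBS, 1562 to 5716 with IL1b and 904 to 10780 with TNFa. In DC.8+ they summed to 18.7 to 258.8 CPM with PBS and 5.58 to 706.1 with IL1b, and 5 NK markers, none at 0, to 48.9 to 424 with PBS, 5.56 to 11.7 with IL1b and 87.7 to 354.2 with TNFa. Without the libraries highest in erythroid markers, a choice made after seeing the data, Pim3 with IL1b was called in 2 types: MFrp stood at 1.29 ± 0.48 (adjusted p = 0.1289) and DC.8+ at 1.45 ± 0.45 (adjusted p = 0.1937). Calls in the same 2 types, MFpc and Mo.6C+, were left without IL1b library 3 of each type. The TNFa call in MFrp held without the erythroid-rich libraries (2.86, adjusted p = 0.001923). In Mo.6C+, 5 red pulp macrophage markers, none at 0, summed to 189.3 to 363.7 CPM with PBS, 3016 to 5352 with IL1b and 6175 to 8777 with TNFa. In MFpc the same markers, none at 0, summed to 200.1 to 403 CPM with PBS, 669.9 to 686.5 with IL1b and 880.2 to 1088 with TNFa. The mean log2 CPM of 5 Mo.6C+ markers, none at 0, was 4.12 to 5.15 in MFpc with TNFa against 3.14 to 4.05 with PBS, while their sums overlapped (526.1 to 723.2 against 579.1 to 1407 CPM). The part of these markers in the PIM responses of either type was not tested.

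The lymphocytes showed no called change of Pim3 with any of the 3 cytokines, in NK, Tgd, Treg, T.4, T.8, MZB or B.fo. Groups lay apart without a call in MZB with IL1b, at 47.7, 49.1 and 45.1 CPM against 18.1 to 35.8 with PBS (0.61 ± 0.31, adjusted p = 0.3272). So did those of T.4 with IL6, at 58.5, 50.2 and 56.5 CPM against 34.5 to 46.8 (0.41 ± 0.20, adjusted p = 0.3697). The Tgd groups overlapped. In Tgd, where Pim2 rose from the highest PBS level, Pim3 stood at 36.6, 49.6 and 22.6 CPM with IL1b and 29.7 to 52.8 with PBS. With IL6, edgeR's quasi-likelihood test called Pim3 in 0 of 14 types, 3 had an unadjusted p under 0.05, and DESeq2 called 0. MFrp at 26.6, 16 and 28.9 CPM had the largest difference (1.34 ± 0.39, adjusted p = 0.2346). None of the kinases was lowered by IL1b or TNFa in any type, with 0 at an unadjusted p under 0.05 and 0 by DESeq2. In GN the IL1b libraries of Pim3 stood at 7.1, 0 and 0.191 CPM against 2.93 to 17.5 with PBS (-1.89 ± 1.13, adjusted p = 0.265), and without the library at 7.1 the difference was called.

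**Figure D2:**
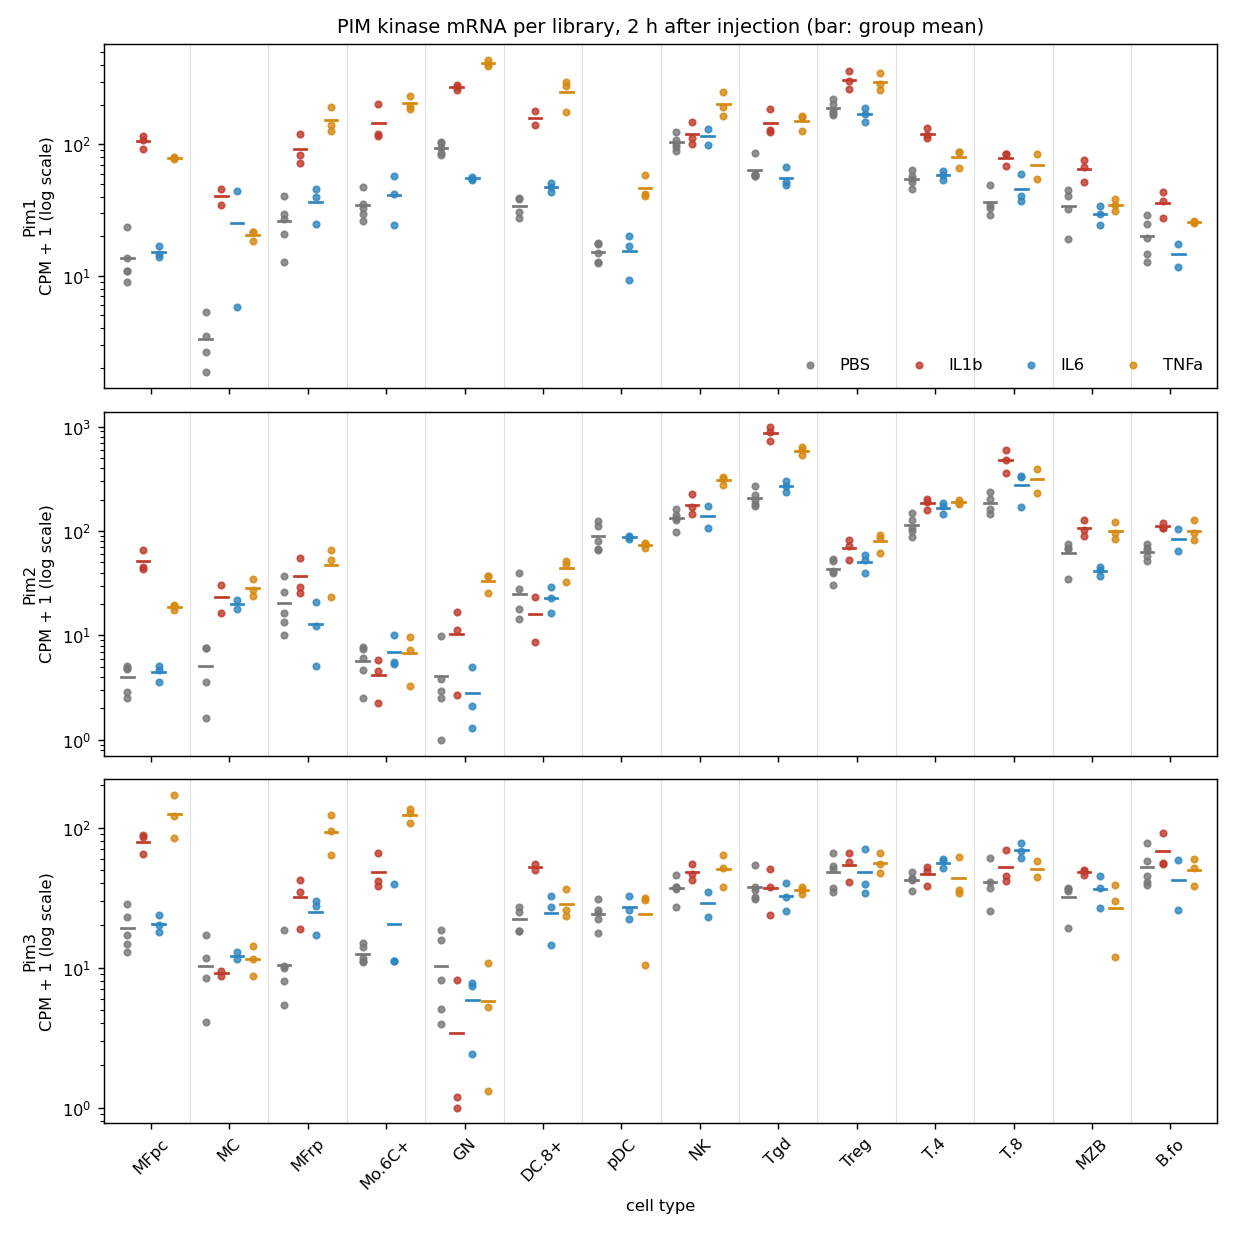
PIM kinase mRNA in every library of the screen, as CPM + 1 on a log axis, by cell type and treatment (points are libraries, bars are group means). IL1b and TNFa libraries of Pim1 sit above PBS in most types, whereas TNFa libraries of Pim3 sit above PBS in MFpc, MFrp and Mo.6C+.

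Whether a response was the same in every cell type was tested directly, in 1 fit of all 183 libraries over 21905 genes. The IL1b response depended on cell type for all 3 genes, with adjusted p = 4.35e-13 for Pim1, 3.21e-10 for Pim2 and 5.47e-06 for Pim3 (edgeR's quasi-likelihood F test), against 22.8% of all genes. So did the TNFa response, with adjusted p = 1.46e-17, 5.13e-07 and 2.11e-14, against 36.3% of genes. For IL6 the dependence was called for Pim1 (adjusted p = 8.82e-07, 6.87% of genes) and not for Pim2 (0.19) or Pim3 (0.37).

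**Figure D3:**
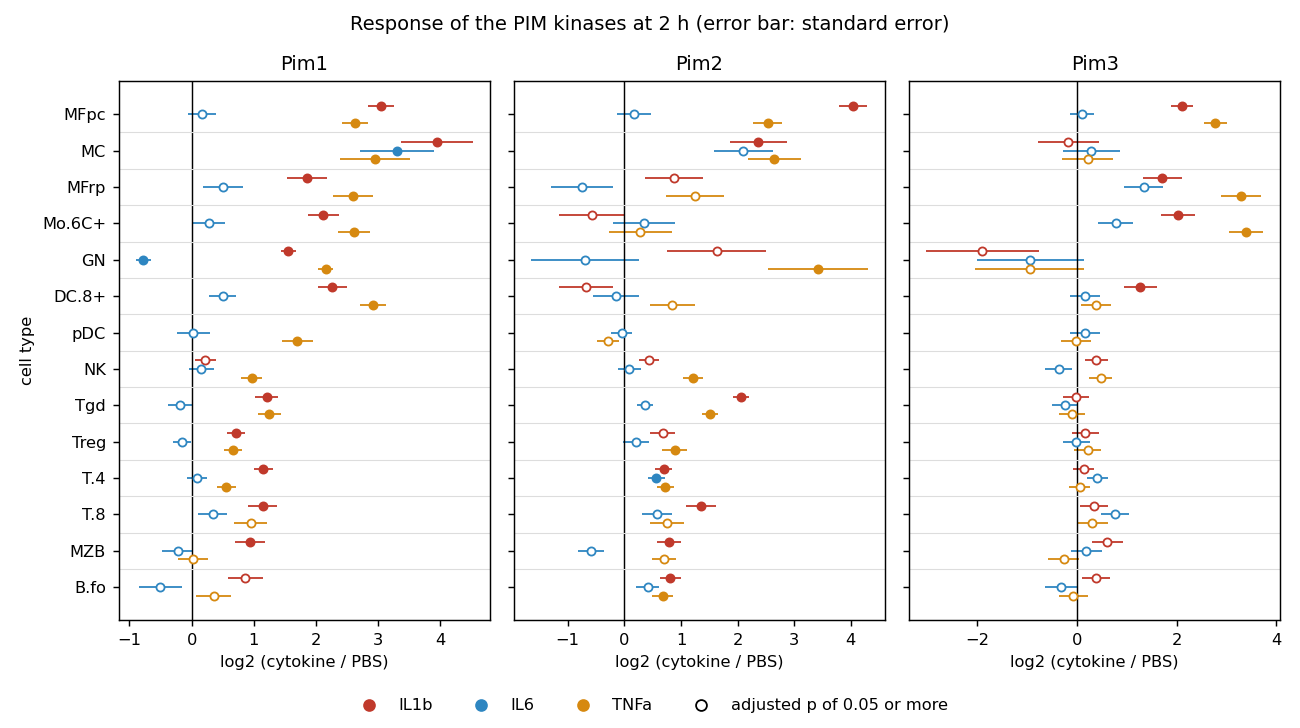
Log2 ratio of each cytokine to PBS at 2 h for each PIM kinase and cell type, with the standard error. For Pim1 nearly all IL1b and TNFa points lie right of 0, for Pim2 the MFpc point with IL1b lies farthest right at 4.04, and for Pim3 3 types exceed 1.5 with TNFa.

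Set against each other in the same cell type, IL1b and TNFa differed for few PIM responses. Pim2 in MFpc was higher with IL1b than with TNFa by 1.51 ± 0.26 (adjusted p = 0.0002916, edgeR's quasi-likelihood test). Over all types 2.33% of such tests were called higher, and in MFpc 1011 of 12079 genes were. Pim3 in Mo.6C+ was lower with IL1b, by -1.36 ± 0.38 (adjusted p = 0.02336), as was Pim1 in GN, by -0.60 ± 0.14 (adjusted p = 0.003498). Lower calls made up 2.17% of all tests, with 824 of 12573 genes in Mo.6C+ and 1130 of 11201 in GN. These were the 3 calls among 39 tests, and the Pim3 call in Mo.6C+ was lost in 4 of 6 runs leaving out 1 library. The TMM factors in GN were 0.862 to 0.9075 with IL1b and 0.6934 to 0.7079 with TNFa, and a lower factor raises CPM. The median difference of all genes in GN was 0.133. This contrast was not refitted with scaling to the library total alone. DESeq2 called more, with 2 types higher and 2 lower for Pim1 and 3 lower for Pim3.

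Against IL6, every called difference was higher with IL1b or TNFa, while uncalled differences had both signs. Pim3 was below 0 in 4 of 13 types for IL1b minus IL6 and in 6 of 14 for TNFa minus IL6. IL1b exceeded IL6 for Pim1 in 9 of 13 types, for Pim2 in 3 (MFpc 3.86, Tgd 1.69 and MZB 1.38 on the log2 scale) and for Pim3 in 2 (MFpc 2.00 and Mo.6C+ 1.25), with 3.06% of all tests higher and 2.14% lower. Of these, the Pim1 calls in MFrp and MZB were lost in 6 and 4 of 6 runs leaving out 1 library, and the Pim3 call in Mo.6C+ in 3 of 6. TNFa exceeded IL6 for Pim1 in 9 of 14 types, for Pim2 in 6 and for Pim3 in 3, with 5.41% of all tests higher and 5.18% lower, and the Pim2 call in MFrp was lost in 4 of 6 such runs. The shares of all genes differed by type. IL1b exceeded IL6 for 14 of 13930 genes in T.8 and 1398 of 12573 in Mo.6C+. TNFa exceeded IL6 for 16 of 13697 genes in B.fo and 2373 of 12079 in MFpc. No PIM kinase was called higher with IL6 than with IL1b or TNFa, with 0 at an unadjusted p under 0.05 and 0 by DESeq2.

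In the time course, Pim1 was raised at 2 h in Mo.6C+ and at 2, 4 and 8 h in MFpc. Pim2 was called at 2 h in MFpc and at no time in Mo.6C+, and Pim3 was raised at 2, 4 and 8 h in both cell types. The only controls are PBS libraries at 24 h.

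In Mo.6C+, Pim1 had 28.4 and 19.7 CPM with PBS, 278 and 167 at 2 h, 40.9 and 22.7 at 4 h, 14.3 and 22 at 8 h and 22.8 and 17.6 at 24 h. It was raised at 2 h (3.20 ± 0.36, adjusted p = 3.904e-05, with 19.7% of genes raised) and not at 4 h (0.40, adjusted p = 0.42). The fall from 2 to 4 h was itself called (-2.80 ± 0.36, adjusted p = 0.0008665, with 5.25% of genes lowered). In MFpc, Pim1 had 7.57 and 5 CPM with PBS, 79.7 and 97.2 at 2 h, 46.7 and 41.2 at 4 h, 31.7 and 44.6 at 8 h and 14.1 and 9.53 at 24 h. It was raised at 2 h (3.81 ± 0.29, 18.1% of genes raised), 4 h (2.80 ± 0.29, 18.7%) and 8 h (2.60 ± 0.29, adjusted p = 3.789e-05, 15.6%), and not at 24 h (0.91 ± 0.30, adjusted p = 0.09147, 3.81%). It was lower at 4 h than at 2 h by -1.01 ± 0.25 (adjusted p = 0.02365, 5% of genes lowered), a call lost in 4 of 4 runs leaving out 1 library, and at 24 h by -2.90, where 17.2% of genes in MFpc and 17.5% in Mo.6C+ were lowered. The responses of the cell types differed at 4 h, by -2.30 ± 0.48 for Mo.6C+ minus MFpc (adjusted p = 0.005229, 7.69% of genes called), and at 8 h, by -2.94 ± 0.49 (adjusted p = 0.0008102, 9.03%).

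Pim2 in MFpc had 1 and 3.11 CPM with PBS and 14.1 and 14.5 at 2 h (2.78 ± 0.56, adjusted p = 0.001938). By 4 h it was at 5.09 and 2.31 CPM, a fall of -1.95 ± 0.54 from 2 h (adjusted p = 0.03774) whose call was lost in 4 of 4 runs leaving out 1 library, and at 8 and 24 h at 0.757 to 1.1. In Mo.6C+ it stayed between 2.08 and 8.17 CPM in all 10 libraries and was called at 0 of 4 times. The response at 2 h differed between the cell types by -3.65 ± 0.88 (adjusted p = 0.0125, 9.64% of genes called).

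Pim3 in Mo.6C+ was highest in the 4 h libraries, although the step from 2 h was not called (0.60 ± 0.36, adjusted p = 0.3181). It had 21.8 and 18.5 CPM for PBS, 74.9 and 106 at 2 h, 163 and 113 at 4 h, 26.6 and 67.6 at 8 h and 13.9 and 10.4 at 24 h. The log2 differences were 2.17 ± 0.39 at 2 h (adjusted p = 0.0009914), 2.77 ± 0.40 at 4 h (adjusted p = 0.0002256, 15.9% of genes raised) and 1.22 ± 0.39 at 8 h (adjusted p = 0.03928, 11.5%), the last lost in 3 of 4 runs leaving out 1 library. At 24 h it was not called (-0.73, adjusted p = 0.3965, with 2.74% of genes raised). In MFpc it had 22.9 and 17.8 CPM with PBS, 163 and 184 at 2 h, 189 and 155 at 4 h, 42.3 and 118 at 8 h and 18 and 12.7 at 24 h. These gave 3.10 ± 0.38, 3.08 ± 0.38 and 1.97 ± 0.37 (adjusted p = 0.001726) at 2, 4 and 8 h. The 8 h libraries disagree in both cell types. The Pim3 response did not differ detectably between the cell types at any time, 24 h included, where 2.89% of genes were called.

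In the Mo.6C+ time course, 6 neutrophil markers had a mean log2 CPM of 6.03 and 5.74 in the TNFa libraries at 2 h against 1.07 to 4.15 in the others, and their part in the Pim1 and Pim3 values was not tested. The TNFa responses at 2 h in the screen and the time course, each against its own PBS libraries, did not differ detectably for any PIM kinase, with 0.897% of genes called in Mo.6C+ and 0.864% in MFpc. The largest gap was for Pim1 in MFpc (-1.19 ± 0.39 for the screen minus the time course, adjusted p = 0.1857).

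**Figure D4:**
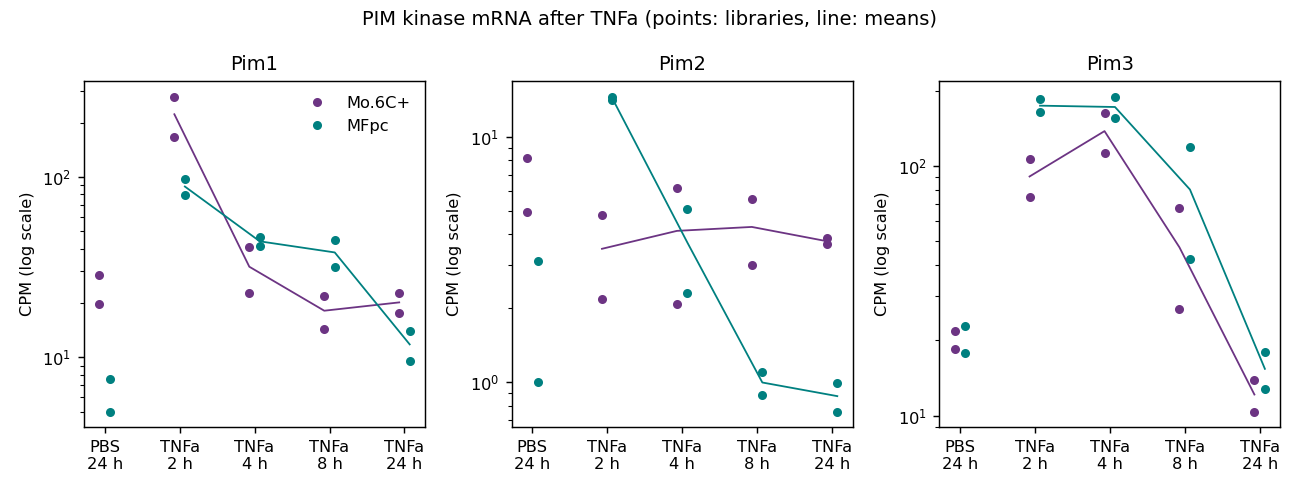
PIM kinase mRNA in Mo.6C+ and MFpc after TNFa, in CPM on a log axis, against PBS at 24 h (points are libraries, lines join means). Pim1 in Mo.6C+ is back at 22.7 to 40.9 CPM by 4 h, when Pim3 stands at 113 to 163.

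LPS at 1 ng left the PIM kinases of Mo.6C+ without a called change, while 18.6% of genes were called. Pim1 had 55.8, 51 and 82.3 CPM with LPS and 41.2, 96.9 and 27.7 in the controls (0.20 ± 0.43, adjusted p = 0.7922). Pim2 had 0.483, 2.85 and 6.83 against 5.84, 9.43 and 5.23 (-0.99 ± 0.77), and Pim3 7.73, 19.7 and 20 against 10.5, 11.4 and 8.97 (0.62 ± 0.44, adjusted p = 0.3608). All 3 pairs of groups overlapped, the control libraries of Pim1 spread more than those of the screen, and 0 of 3 genes had an unadjusted p under 0.05 or a call by DESeq2. Each response was then compared with the cytokine responses of the screen, against its own controls. Pim1 responded less to LPS than to IL1b (-1.85 ± 0.49, adjusted p = 0.02743, 5.11% of genes called) and to TNFa (-2.34 ± 0.49, adjusted p = 0.004861, 6.64%). Pim3 responded less to LPS than to TNFa (-2.72 ± 0.56, adjusted p = 0.004395). No difference from the IL6 response was called, with 9.92% of genes called. The experiments were separate, and the time after LPS is not given in the sources used here, so agent, time and experiment cannot be told apart.

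The receptors of the injected cytokines were measured in the same PBS libraries. Il1r1, the signalling receptor of IL1b, stood at 15.7 ± 9.81 CPM in Tgd (n = 5) and 6.60 in MFrp, and at most 2.93 in any other type, MFpc included at 1.79. Il6ra, the IL6-binding chain, was high in GN (434 CPM), Mo.6C+ (336), T.4 (218), Treg (177) and MFpc (170) and near 0 in NK (0.266). Its partner chain Il6st was 199 CPM in DC.8+ and 191 in T.4, and 1.04 in GN. Tnfrsf1a was 1477 CPM in GN, 402 in Mo.6C+ and 252 in MFpc, and had 0 counts in the 4 MC libraries, which allows up to 3 counts in each (counting error only). Tnfrsf1b, the other TNF receptor, was 1938 CPM in Mo.6C+, 794 in GN and 26.1 in MC.

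Across cell types, receptor level and PIM response were set side by side as a description. Pearson's r was 0.481 (Spearman's rho 0.61) for Il1r1 and the Pim2 response to IL1b over 13 types, and 0.269 (0.462) for Il1r1 and Pim1. For Tnfrsf1a and the Pim1 response to TNFa r was 0.447 (0.459) over 14 types, and for Tnfrsf1b and Pim3 0.563 (0.459). For Il6st and the Pim3 response to IL6, a response called in no type, it was 0.685 (0.587). For Il1r1 and Pim3 r was -0.0416. Il6ra had -0.237 with Pim1, -0.173 with Pim2 and 0.203 with Pim3, and Il6st 0.0677 with Pim1 and 0.11 with Pim2. Tnfrsf1a had 0.227 with Pim2 and 0.379 with Pim3, and Tnfrsf1b 0.413 with Pim1 and 0.172 with Pim2. The points of a pair share the PBS libraries and their depth.

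Other genes of the pathway were counted in the same fits. Summed over cell types, the PIM kinases were raised in 22 of 39 tests with IL1b, 2 of 42 with IL6 and 22 of 42 with TNFa. Among STAT-induced inhibitors of JAK signalling, 65.3% of tests were raised with IL1b, 13.5% with IL6 and 65.4% with TNFa. Socs3 was raised in 12 of 13 types by IL1b, 6 of 14 by IL6 and 13 of 14 by TNFa, Socs1 in 11 by IL1b and 11 by TNFa, and Cish in 7 and 7. Among JAK kinases and STAT factors the shares were 25.2%, 9.09% and 41.6%, led by Stat3 (12, 8 and 13 types), the main factor below the IL6 receptor, and Jak3 (8, 5 and 10). With TNFa, Stat6 followed in 9 types. IL6 raised Stat3 in 8 types and Pim1 in 1, MC, where the IL6 libraries disagreed (4.81 and 43.3 CPM). That Pim1 call was lost with a replicate block, and a link between these genes was not tested.

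NF-kB subunits and inhibitors were raised in 51.5% of tests with IL1b, 5% with IL6 and 76.4% with TNFa. Bcl3, an atypical nuclear IkB protein, was raised in 13 of 13 types by IL1b and 14 of 14 by TNFa, and Nfkbia, the inhibitor that NF-kB itself induces, in 11 and 12. Genes of proteins known as PIM substrates had 13.3%, 1.18% and 15.3% of tests raised and 6.98%, 1.47% and 14.2% lowered, in the same order. Among them Myc, whose protein PIM kinases stabilise, was raised in 10 of 12 types by IL1b and 7 of 13 by TNFa. Cdkn1a, a cell cycle inhibitor, was raised in 6 of 11 and 8 of 12, and Foxo3, a factor of cell death genes, was lowered in 8 of 14 by TNFa. For chaperones, the ubiquitin ligase and phosphatase subunits that act on PIM protein, 15% of tests were raised with IL1b, 0% with IL6 and 17.4% with TNFa. The AKT, SGK, PDPK1, TOR and S6 kinases, with partners of TOR, had 11.2%, 3.25% and 14.3% raised and 4.9%, 1.3% and 7.14% lowered. Among those raised by IL1b, Akt2 led with 6 types. Sgk1 was raised in 3 types and lowered in 4 by IL1b, and Sgk3 was raised in 3 and lowered in 5 by TNFa. All lists stand against the shares of all genes given above, 5.76%, 1.46% and 8.26% raised and 4.26%, 0.95% and 7.95% lowered. Their members were chosen with earlier results of these data known.

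Each PIM kinase had its own nearest genes. By Pearson's r of mean log2 CPM over the 14 cell types with PBS, among 4900 genes above a mean of 5 log2 CPM, Inpp1 (0.889), Akna (0.887) and Taf8 (0.882) were closest to Pim1. Gbp4 (0.938), H2-Q7 (0.936) and Ablim1 (0.929) were closest to Pim2, and Osbpl7 (0.909), Yju2 (0.896) and Puf60 (0.88) to Pim3. Among themselves r was 0.69 for Pim2 and Pim3, 0.379 for Pim1 and Pim3 and 0.193 for Pim1 and Pim2.

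The order among the kinases differed for the responses. Over the 117 cytokine libraries, each minus its type's PBS mean, Nfkbia (0.751), Per1 (0.697) and Resf1 (0.68) were closest to Pim1, Apobec3 (0.624), Nfkb1 (0.622) and Mbd1 (0.606) to Pim2, and Mtdh (0.763), Eif3a (0.727) and Pak1ip1 (0.705) to Pim3. Pim1 ranked 6 among the genes closest to Pim2 (0.539), while Pim2 and Pim3 were near 0 (-0.0937) and Pim1 and Pim3 stood at 0.347. The libraries of a type share its PBS mean and libraries vary in depth, so these values are descriptions of likeness only.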

How the data were processed

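Counts of reads per gene came from 1 deposited table of raw counts for all 209 libraries. Per the submitters' processing notes, the tools were STAR 2.7.3a and featureCounts and the build was mm10. The annotation, strand setting and filters of that step are not stated in the labels or headers. The table's columns were matched to libraries by title. Of its 55011 symbols, 53009 are in GENCODE vM21, which gave gene positions and exon lengths.

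Genes were filtered with edgeR 4.0.16 (filterByExpr defaults), scaled by TMM and tested with the quasi-likelihood test (glmQLFit, glmQLFTest, R 4.3.3), with Benjamini-Hochberg adjustment over all genes tested and a threshold of 0.05. There was 1 fit per cell type for the screen, the time course and LPS, and joint fits over all PBS libraries, over the screen and across experiments. Standard errors come from the log2 difference and its F. CPM are per 1e+06 counts after scaling. The scripts were tested on simulated data. Alternatives were RLE scaling, no filter, DESeq2 1.42.0, a replicate block, a fit of the cytokine and PBS libraries alone and leaving out each library, and, chosen after seeing the data, leaving out libraries with markers of other cells. Where 1 library was left in a group, it is assumed to vary like the other groups.

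Pim1, Pim2 and Pim3 were named in every comparison. Beside them the text names the receptors of the injected cytokines, up to 3 members per pathway list and cytokine called in the most cell types, and the 3 genes of highest r. The members and lists were chosen with earlier results of these data known.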

Additional observations from a re-analysis of the deposited data

Results flagged for a closer look

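In 3 of the 42 groups of 4 or 5 libraries examined with PBS, 1 library stood apart from the rest, where chance gives about 1 in 20. Pim1 in Tgd was 85.5 CPM in PBS library 1 and at most 58.6 in the others. In MZB, Pim2 was 33.5 CPM in PBS library 4, with the nearest at 66.5, and Pim3 was 18.1 CPM in PBS library 1, with the nearest at 34.1.

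The size of a response differed between cell types, by a test of the difference itself. For IL1b the adjusted p was 4.35e-13 for Pim1, 3.21e-10 for Pim2 and 5.47e-06 for Pim3 (edgeR's quasi-likelihood F test). For TNFa it was 1.46e-17, 5.13e-07 and 2.11e-14 in the same order, and for IL6 it was 8.82e-07 for Pim1. In the time course, Mo.6C+ responded less to TNFa than MFpc for Pim2 at 2 h (log2 difference -3.65) and for Pim1 at 4 h (-2.3) and 8 h (-2.94).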

How the results depend on the processing

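Of 105 called comparisons of a PIM kinase, 76 were called in every run leaving out 1 library and 75 under every alternative, while 35 others were called only under some alternative. RLE scaling lost no call, gained 1 and moved no difference by more than 0.0653. RLE is, like TMM, a correction for library composition, so this does not show how the responses depend on that correction. They were not refitted with scaling to the library total alone. The TMM factors in GN were 1.151 to 1.229 with PBS and 0.6934 to 0.7079 with TNFa. Sharing of a mouse between cell types is not given in the labels and was not examined. The joint fits took libraries as independent. Within a cell type, replicate numbers did not pair treatment groups by the rule used: in 17 fits none had every same-numbered pair correlated over 0.1 (13 of 263 pairs). With them as a replicate block, counts of cell types became 0 for Pim1 raised by IL6 (from 1), 4 for Pim2 raised by IL1b (from 7) and 3 for Pim3 lower with IL1b than TNFa (from 1), and Pim3 in MC for IL1b minus TNFa reversed to 0.068. Without the filter, Pim2 and Pim3 were raised by IL6 in 3 and 2 types, Pim2 was higher with IL1b than IL6 in 6, and Pim2 and Pim3 were lower with IL1b than TNFa in 2 and 3. With DESeq2, Pim1 was higher with IL1b than TNFa in 2 types and lower in 2, Pim2 and Pim3 were lower in 2 and 3, and IL6 raised Pim2 in 2. A fit of 2 groups alone left 0 for Pim2 with IL6, leaving out erythroid-rich libraries left 2 for Pim3 with IL1b, and scaling to the total alone moved the Pim2 span over cell types with PBS from 5.29 to 6.01 on the log2 scale.

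Leaving out 1 library gave ranges of 0 to 1 type for Pim1 and for Pim2 raised by IL6, 3 to 8 for Pim2 and 2 to 4 for Pim3 raised by IL1b, and 0 to 1 for Pim3 lowered by IL1b. Lower with IL1b than TNFa were 1 to 2 for Pim1, 0 to 1 for Pim2 and 0 to 2 for Pim3, and for Pim3 IL1b minus IL6 the range was 1 to 2 higher and 0 to 1 lower. Differences that reversed ranged, over these runs, from -0.18 (without the IL6 library at 38.4 CPM) to 1.09 for Pim3 in Mo.6C+ with IL6, and from -5.26 to 0.20 for Pim3 in GN for IL1b minus TNFa. In MC, IL1b minus TNFa ran from -0.84 to 0.084 for Pim2, IL1b minus IL6 from -0.15 to 3.005 for Pim1 and from -0.29 to 0.63 for Pim2, and TNFa minus IL6 from -1.14 to 2.01 for Pim1 and from -0.28 to 0.036 and 0.086 for Pim3. MC depth limits these: Pim1 had 1 to 10 counts with PBS. The cause was not tested.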
